A study of Mus musculus with 8 samples.

Results

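The 8 genes described here encode enzymes that make asparagine, proline, glutamate, glutamine, alanine and aspartate, or that feed oxaloacetate into these paths. They are Asns, Aldh18a1, Pycr1, Gpt2, Got1, Got2, Glul and Pck2, picked by gene name, and all 8 were found among the 49315 genes that each library lists. RNA was sequenced from immortalized mouse embryonic fibroblasts (MEFs) of 2 kinds, with 4 libraries each. The first kind is Opa1-/-, lacking OPA1, the dynamin-like GTPase that fuses mitochondrial inner membranes and shapes cristae. The second is Opa1-/- + OPA1, the same knockout genotype given OPA1 back, so both kinds carry the disrupted allele and no wild-type cells are compared. The labels do not say how OPA1 was put back, whether either line is 1 clone, or whether the libraries came from separate cultures. The p-values below may thus reflect technical spread alone.

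Cells build most non-essential amino acids from glutamate, which carries nitrogen taken from glutamine. Aminotransferases pass that nitrogen to oxaloacetate to give aspartate and to pyruvate to give alanine, and a separate path reduces glutamate to proline. Aspartate receives an amide group to become asparagine, and glutamate receives ammonia to become glutamine. When mitochondria fail, phosphorylation of eIF2-alpha favours translation of ATF4, a transcription factor known to drive Asns and several other genes of amino acid supply.

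ATF4 binds DNA together with C/EBP proteins at composite elements with the core TGATGNAA, or TTNCATCA on the other strand. RefSeq windows of GRCm38.p6 reaching from 250 bases before to 50 bases after the transcription start were available for all 8 genes. The core was present in 4 of the 8 windows, those of Asns, Pycr1, Pck2 and Got1, against 1219 of 27025 genes with a window (4.51%). The 150 bases upstream of the start in these 4 genes are printed 5′ to 3′ on the gene's strand to show where the core lies, with its 8 bases in capitals.
Asns: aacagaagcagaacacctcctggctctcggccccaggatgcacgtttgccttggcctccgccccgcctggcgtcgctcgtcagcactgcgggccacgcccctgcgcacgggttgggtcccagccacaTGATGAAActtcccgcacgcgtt
Pycr1: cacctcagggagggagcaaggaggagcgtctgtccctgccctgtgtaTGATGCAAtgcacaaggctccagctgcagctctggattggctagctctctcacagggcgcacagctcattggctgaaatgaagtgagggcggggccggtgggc
Pck2: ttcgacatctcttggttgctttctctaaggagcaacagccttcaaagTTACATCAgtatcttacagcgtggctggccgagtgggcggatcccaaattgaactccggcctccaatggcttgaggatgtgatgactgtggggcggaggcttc
Got1: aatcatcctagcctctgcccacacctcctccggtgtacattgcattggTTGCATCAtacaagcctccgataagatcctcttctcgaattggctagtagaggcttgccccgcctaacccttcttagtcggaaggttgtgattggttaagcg
The Asns stretch (chr6:7693210-7693359, minus strand) holds the core from 23 to 16 bases before the RefSeq start. That start and the core lie inside the GENCODE span of Asns given below, which reaches 7693254, so the sources place the start differently. The Pycr1 stretch (chr11:120643749-120643898, minus strand) and the Pck2 stretch (chr14:55540116-55540265, plus strand) both hold it from 103 to 96 bases before the start, in Pck2 on the opposite strand. The Got1 stretch (chr19:43524606-43524755, minus strand) holds it from 102 to 95 bases before the start, also on the opposite strand. The windows of Aldh18a1, Gpt2, Got2 and Glul did not hold these letters. The 4 genes with the core were not alike in the RNA data below, since 3 were higher in Opa1-/- cells and Got1 was not called. A match describes the letters only and is not evidence of binding.

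Levels are given as TPM (transcripts per 1000000, a level per length of transcript), scaled between libraries. Differences are Opa1-/- minus Opa1-/- + OPA1 on the log2(scaled TPM + 1) scale, which understates changes of low genes, strongly for those near 1 TPM. Each p was computed in limma (trend option), adjusted by Benjamini and Hochberg across the 14272 genes tested, and taken as a call under 0.05. Of all genes tested, 33.0% were called, 16.3% as higher and 16.8% as lower in Opa1-/- cells. All 8 enzymes were above 1 TPM in every library, and 5 were called higher (Asns, Aldh18a1, Pycr1, Gpt2 and Pck2), 2 lower (Glul and Got2), and Got1 was not called. The libraries of the kinds did not overlap for the 7 called enzymes, as for 36.3% of all genes tested (17.4% higher and 18.9% lower). In bulk RNA, fewer cells of a type and less RNA per cell cannot be told apart.

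Across the series, depth implied by the TPM steps was between 53.0 and 57.9 M assigned reads per library. Opa1 itself was at 12.5 to 14.8 TPM in Opa1-/- libraries and 14.5 to 15.6 TPM in Opa1-/- + OPA1 libraries (difference -0.09, adjusted p = 0.305), so the gene total does not check the labels. 4 small and ribosomal RNA genes took 11% to 15.5% of TPM in Opa1-/- and 5.29% to 14.2% in Opa1-/- + OPA1 libraries, which the scaling takes out. Of 8 fibroblast markers, 7 reached 1 TPM, with summed levels of 2193 to 2461 TPM in Opa1-/- and 2620 to 2653 TPM in Opa1-/- + OPA1 libraries, and Pdgfra stayed below 1 TPM. Col1a1, Col1a2, Pdgfrb and S100a4 were called lower and Col3a1 higher in Opa1-/- cells, while Vim and Thy1 were not called. The 3 endothelial markers summed to at most 0.425 TPM in Opa1-/- and 0.277 TPM in Opa1-/- + OPA1 libraries. The 3 muscle markers summed to at most 0.81 TPM in Opa1-/- and 0.404 TPM in Opa1-/- + OPA1 libraries, with Myog at 0 throughout. Of 4 blood and macrophage markers, summing to 2.76 to 7.57 TPM and 4.36 to 6.38 TPM in Opa1-/- and Opa1-/- + OPA1 libraries, Ptprc and Adgre1 were at or near 0. The 3 hepatocyte markers summed to 17.4 to 33.6 TPM in Opa1-/- and 18.1 to 27.1 TPM in Opa1-/- + OPA1 libraries, nearly all of it Alb, which was at 16.4 to 31.7 TPM in Opa1-/- and 17.2 to 25.8 TPM in Opa1-/- + OPA1 libraries and was not called. The 4 epithelial markers summed to 175 to 212 TPM in Opa1-/- and 144 to 207 TPM in Opa1-/- + OPA1 libraries. Most of that was Krt18, at 158 to 194 TPM in Opa1-/- and 134 to 196 TPM in Opa1-/- + OPA1 libraries, which was not called. Cdh1 and Krt8 were called higher in Opa1-/- cells, with Cdh1 at 11.4 to 15.4 TPM against 7.01 to 8.92 TPM in Opa1-/- + OPA1 libraries, and Krt8 at 3.93 to 5.57 TPM against 1.85 to 2.44 TPM in Opa1-/- + OPA1 libraries. Epcam stayed at or below 0.53 TPM in every library. The part of these markers in the results below was not tested.

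**Figure D1:**
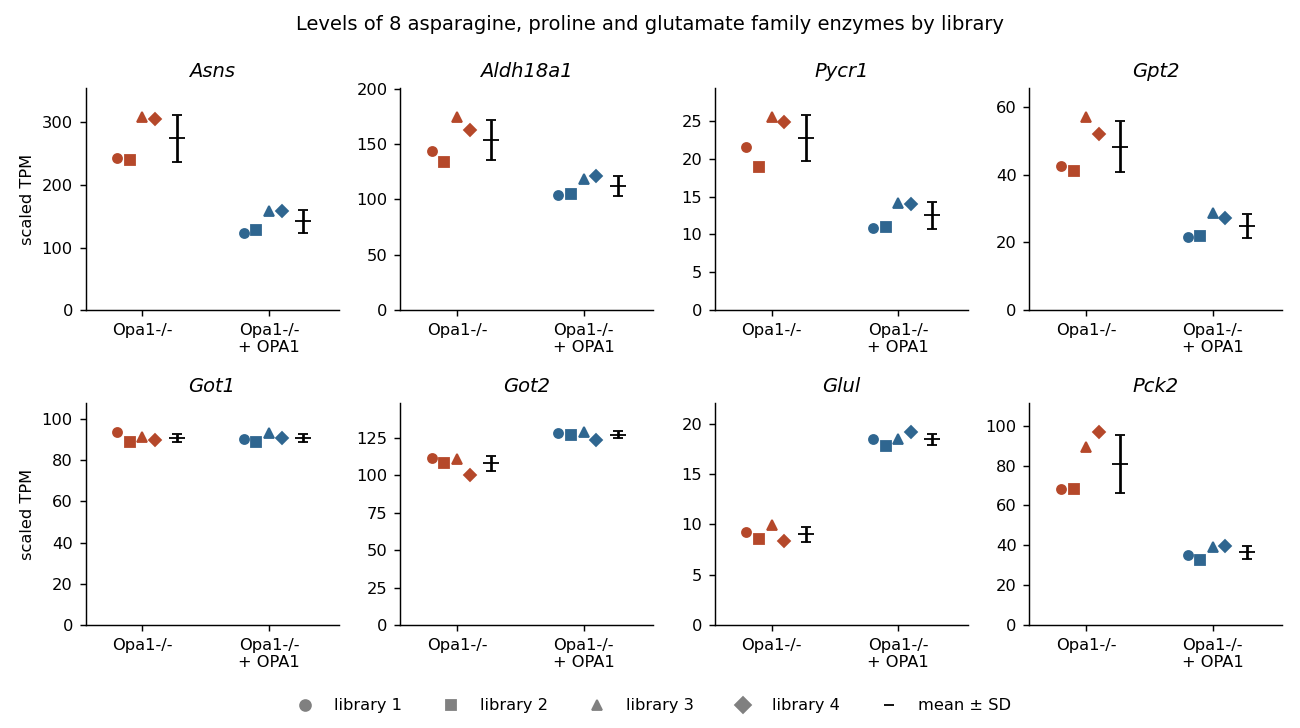
Scaled TPM of the 8 enzymes in each library, with Opa1-/- libraries on the left of each panel and Opa1-/- + OPA1 libraries on the right; marker shapes give the library number and black bars the mean ± SD (n = 4). Asns, Aldh18a1, Pycr1, Gpt2 and Pck2 libraries lie higher in Opa1-/- without overlap, Got2 and Glul lie lower without overlap, and Got1 overlaps.

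Asparagine synthetase was about 1.9 times as abundant in the knockout cells. Asns (ENSMUSG00000029752; GRCm38 chromosome 6, 7675169 to 7693254, minus strand) transfers the amide nitrogen of glutamine to aspartate, giving asparagine and glutamate. It was at 243.8, 239.8, 308.2 and 305.5 TPM in Opa1-/- libraries 1 to 4, against 123.8, 127.6, 157.8 and 158.3 TPM in Opa1-/- + OPA1 libraries 1 to 4. The lowest Opa1-/- library lay well above the highest Opa1-/- + OPA1 library, and in both kinds the libraries numbered 3 and 4 were higher than those numbered 1 and 2. The means were 274 ± 37.6 TPM in Opa1-/- and 142 ± 18.7 TPM in Opa1-/- + OPA1 cells (SD, n = 4 each), a ratio of 1.93. On the log2 scale Asns differed by 0.95 with an SE of 0.12 (95% confidence interval 0.69 to 1.21, limma adjusted p = 0.000407). Each value rests on 6485 to 16189 recovered reads. Asnsd1, a protein with an asparagine synthetase-like domain, was at 13.2 ± 1.73 TPM in Opa1-/- and 11.4 ± 0.718 TPM in Opa1-/- + OPA1 cells and was not called (0.19, adjusted p = 0.129). Of its annotated transcript words of 50 bases, 54.5% recur in other genes, so its level is uncertain. Asrgl1, which hydrolyses asparagine back to aspartate, was called higher, at 8.06 ± 0.255 TPM in Opa1-/- and 5.51 ± 0.626 TPM in Opa1-/- + OPA1 cells (0.48, adjusted p = 0.00144).

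Both proline synthesis members rose, by unequal amounts. Aldh18a1 (ENSMUSG00000025007; chromosome 19, 40550257 to 40588463, minus strand) encodes pyrroline-5-carboxylate synthase, the mitochondrial enzyme that activates and reduces glutamate at the start of the path. It was at 143.7, 133.7, 174.3 and 162.5 TPM in Opa1-/- libraries, against 103.7, 105.2, 118.6 and 121.4 TPM in Opa1-/- + OPA1 libraries. The groups did not overlap. Their difference came to 0.45 with an SE of 0.09 (95% confidence interval 0.25 to 0.64, adjusted p = 0.00496). Pycr1 (ENSMUSG00000025140; chromosome 11, 120635712 to 120643769, minus strand), a mitochondrial pyrroline-5-carboxylate reductase that makes proline, was at 21.6, 18.9, 25.5 and 24.8 TPM in Opa1-/- libraries. In Opa1-/- + OPA1 libraries it was at 10.9, 11.01, 14.2 and 14.0 TPM. Again there was no overlap, and Pycr1 differed by 0.81 with an SE of 0.12 (95% confidence interval 0.55 to 1.07, adjusted p = 0.000909).

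The cytosolic paralogue Pycrl, also named Pycr3, was more abundant than Pycr1 and was not called. It was at 131 ± 6.57 TPM in Opa1-/- and 129.6 ± 2.39 TPM in Opa1-/- + OPA1 cells (0.01, 95% confidence interval -0.08 to 0.11). On the breakdown side, Prodh, proline dehydrogenase, was at 4.89 ± 0.529 TPM in Opa1-/- and 3.94 ± 0.0919 TPM in Opa1-/- + OPA1 cells (0.25, adjusted p = 0.0321), and with the library number as a block its adjusted p was 0.0553. Its adjusted p was also 0.0656 without Opa1-/- library 3 and 0.065 to 0.0837 without any 1 of the Opa1-/- + OPA1 libraries. On TPM as deposited the adjusted p of Prodh was 0.108, and with no filter on low values 0.0813. Aldh4a1, which returns pyrroline-5-carboxylate to glutamate, was at 2.00 ± 0.33 TPM in Opa1-/- and 2.28 ± 0.259 TPM in Opa1-/- + OPA1 cells and was not called (-0.13, adjusted p = 0.378). The ratio of Aldh18a1 to Aldh4a1 was 72.4 to 85.2 in Opa1-/- libraries and 44.8 to 53.8 in Opa1-/- + OPA1 libraries (exact permutation test, two-sided, p = 0.02857, the smallest 4 against 4 libraries allow, also after adjustment over 3 ratios). Exchanging only the libraries of 1 number gives a smallest two-sided exact p of 0.125, so no ratio given here passes when the libraries are taken as pairs. The log2 ratio differed by 0.65, and by 0.40 with chromosome medians removed (adjusted p = 0.0429). The medians were removed on the log2(scaled TPM + 1) scale, which shifts the level of a low gene such as Aldh4a1 by more than the median. Part of the drop to 0.40 thus comes from that scale. Of the transcript words of Aldh4a1, 30% recur in Gm21969, so its side of the ratio is less certain. Oat, ornithine aminotransferase, which makes pyrroline-5-carboxylate from ornithine, was at 113 ± 6.71 TPM in Opa1-/- and 113 ± 3.87 TPM in Opa1-/- + OPA1 cells (95% confidence interval of the difference -0.11 to 0.11).

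Of the 3 aminotransferases among the members, Gpt2 rose, Got2 fell and Got1 was not called. Gpt2 (ENSMUSG00000031700; chromosome 8, 85492576 to 85527560, plus strand), the mitochondrial alanine aminotransferase, was at 42.7, 41.3, 57.0 and 52.1 TPM in Opa1-/- libraries. In Opa1-/- + OPA1 libraries it was at 21.8, 21.9, 28.6 and 27.4 TPM. The groups were well separated, with a difference of 0.93 (SE 0.13, 95% confidence interval 0.64 to 1.21, adjusted p = 0.0007). Its cytosolic paralogue Gpt was at 12.0 ± 1.76 TPM in Opa1-/- and 10.4 ± 0.58 TPM in Opa1-/- + OPA1 cells and was not called (0.18, 95% confidence interval -0.03 to 0.39). Gpt2 made up 80.0% ± 3.31 of the summed TPM of both in Opa1-/- and 70.4% ± 3.06 in Opa1-/- + OPA1 libraries. The ratio of Gpt2 to Gpt, chosen after its values were seen, was 3.39 to 5.56 in Opa1-/- and 2.04 to 2.81 in Opa1-/- + OPA1 libraries (exact permutation test, two-sided, p = 0.02857). Because the separation was already seen, this p is a description and not a further test.

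Got1 and Got2 encode the cytosolic and mitochondrial aspartate aminotransferases, which interconvert aspartate and oxaloacetate and run the malate-aspartate shuttle. Got1 (ENSMUSG00000025190; chromosome 19, 43499752 to 43524605, minus strand) was at 93.6, 89.0, 91.3 and 89.6 TPM in Opa1-/- libraries, against 90.3, 88.8, 93.1 and 90.9 TPM in Opa1-/- + OPA1 libraries. These values overlap, and the interval of the difference is narrow (0.0018, 95% confidence interval -0.07 to 0.08, adjusted p = 0.972). Got2 (ENSMUSG00000031672; chromosome 8, 95864134 to 95888547, minus strand) was at 111.9, 108.5, 111.1 and 100.6 TPM in Opa1-/- libraries, against 128.6, 127.0, 128.9 and 123.7 TPM in Opa1-/- + OPA1 libraries. Every Opa1-/- library was below every Opa1-/- + OPA1 library, and Got2 differed by -0.23 with an SE of 0.04 (95% confidence interval -0.33 to -0.14, adjusted p = 0.00291).

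The call for Got2 depends on how its chromosome is treated. The median difference of 524 expressed genes on chromosome 8 was -0.18, and once chromosome medians were subtracted Got2 was at -0.046 with adjusted p = 0.4. In libraries numbered 3 and 4 alone it was at -0.26 with adjusted p = 0.139. Gpt2 lies on the same chromosome, and with that median removed it was at 1.11 (adjusted p = 0.00037). Of the transcript words of Got2, 25.6% recur in other annotated genes, among them the pseudogene Got2-ps1. That pseudogene was listed at 0.717 to 1.25 TPM in Opa1-/- and 0.873 to 1.5 TPM in Opa1-/- + OPA1 libraries. The ratio of Got1 to Got2 was 0.82 to 0.891 in Opa1-/- libraries and 0.699 to 0.735 in Opa1-/- + OPA1 libraries (exact permutation test, two-sided, p = 0.02857, also after adjustment over 3 ratios). With chromosome medians removed the log2 ratio differed by 0.030 (adjusted p = 0.286), against 0.24.

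Glutamine synthetase fell furthest of the 8 enzymes. Glul (ENSMUSG00000026473; chromosome 1, 153899944 to 153909723, plus strand) joins ammonia to glutamate to make glutamine. It was at 9.20, 8.55, 9.91 and 8.33 TPM in Opa1-/- libraries, against 18.4, 17.8, 18.4 and 19.2 TPM in Opa1-/- + OPA1 libraries. The groups lay far apart relative to their spread, and unlike Asns or Gpt2 the libraries numbered 3 and 4 were not both above 1 and 2 in Opa1-/- cells. Glul differed by -0.96 with an SE of 0.06 (95% confidence interval -1.10 to -0.83, adjusted p = 1.57e-05), which ranked 81 from the lowest among the 14272 genes. Each value rests on 514 to 1183 recovered reads. Of its transcript words, 12.6% recur in other genes, and its pseudogene Glns-ps1 was listed below 1 TPM in every library.

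Among enzymes that take glutamine and glutamate apart, Gls2 was called by a small margin and Glud1 was not called. Gls2, a glutaminase, was at 7.50 ± 0.248 TPM in Opa1-/- and 6.44 ± 0.332 TPM in Opa1-/- + OPA1 cells (0.19, adjusted p = 0.027), and with the library number as a block its adjusted p was 0.0635. It was also lost without Opa1-/- library 3 (0.0635) and without Opa1-/- + OPA1 library 2, 3 or 4 (0.0612, 0.0915 and 0.0743). The call was lost too on TPM as deposited (0.106), with no filter on low values (0.0501) and with chromosome medians removed (0.0791). Glud1, glutamate dehydrogenase, was at 148 ± 5.98 TPM in Opa1-/- and 156 ± 3.61 TPM in Opa1-/- + OPA1 cells and was not called (-0.07, 95% confidence interval -0.16 to 0.02).

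Pck2, mitochondrial phosphoenolpyruvate carboxykinase, had the largest rise of the 8 over all libraries. It turns oxaloacetate, which aspartate can supply, into phosphoenolpyruvate within the mitochondrion. Pck2 (ENSMUSG00000040618; chromosome 14, 55540266 to 55551242, plus strand) was at 68.2, 68.5, 89.5 and 96.8 TPM in Opa1-/- libraries, against 35.3, 32.4, 38.9 and 39.5 TPM in Opa1-/- + OPA1 libraries. The groups did not overlap, and the spread was wider in Opa1-/- cells (coefficient of variation 18.1%, against 9.12% in Opa1-/- + OPA1 cells). Pck2 differed by 1.11 with an SE of 0.12 (95% confidence interval 0.84 to 1.38, adjusted p = 0.000243), which ranked 91 from the highest among genes tested. The cytosolic form Pck1 was at 0.484 to 0.713 TPM in Opa1-/- and 0.251 to 0.533 TPM in Opa1-/- + OPA1 libraries and was too low to be tested, so Pck2 made up at least 98.6% of the pair in every library.

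**Figure D2:**
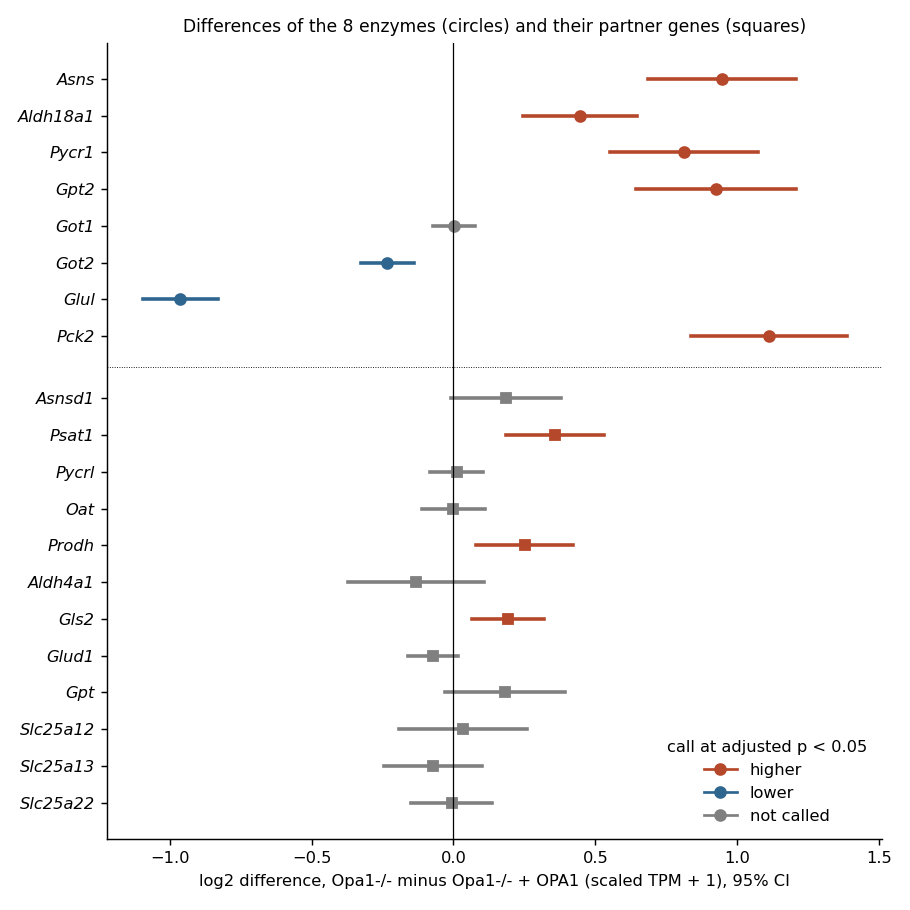
Log2 differences, Opa1-/- minus Opa1-/- + OPA1, with 95% confidence intervals from limma-trend (n = 4 libraries each) for the 8 enzymes (circles, above the dotted line) and for paralogues, reverse steps and carriers (squares). The enzymes run from -0.96 for Glul to 1.11 for Pck2, while the called partner genes lie between 0.19 (Gls2) and 0.36 (Psat1).

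The order of the 8 levels differed between the cell kinds. In Opa1-/- cells it ran Asns, Aldh18a1, Got2, Got1, Pck2, Gpt2, Pycr1, Glul, by mean TPM. In Opa1-/- + OPA1 cells it ran Asns, Got2, Aldh18a1, Got1, Pck2, Gpt2, Glul, Pycr1. Neighbours in these orders did not overlap in their library ranges, except Got1 and Pck2 in Opa1-/- cells and Asns and Got2 in Opa1-/- + OPA1 cells. Aldh18a1 thus stood above Got2 in every Opa1-/- library and below it in every Opa1-/- + OPA1 library, and Pycr1 and Glul likewise changed places. Because TPM divides by a length per gene, a rank between genes depends on the length used. The level of Got2 is also less certain, since 25.6% of its transcript words recur in other genes.

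The 5 enzymes that rose also shared a second pattern, by library number. In Opa1-/- cells the mean of libraries 3 and 4 exceeded that of 1 and 2 by 0.34 for Asns, 0.37 for Gpt2, 0.30 for Pycr1, 0.28 for Aldh18a1 and 0.44 for Pck2, in log2 units. In Opa1-/- + OPA1 cells the same differences were 0.33, 0.34, 0.33, 0.20 and 0.21. For Got1, Got2 and Glul they were between -0.06 and 0.05 in both kinds. The labels do not say what the numbers stand for. Compared within a number, Asns differed by 0.97, 0.91, 0.96 and 0.94 and Gpt2 by 0.94, 0.88, 0.97 and 0.90 in numbers 1 to 4, so the gap between the kinds was nearly the same at each number. The same comparison gave 0.93, 1.06, 1.18 and 1.27 for Pck2 and -0.93, -0.97, -0.83 and -1.11 for Glul.

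**Figure D3:**
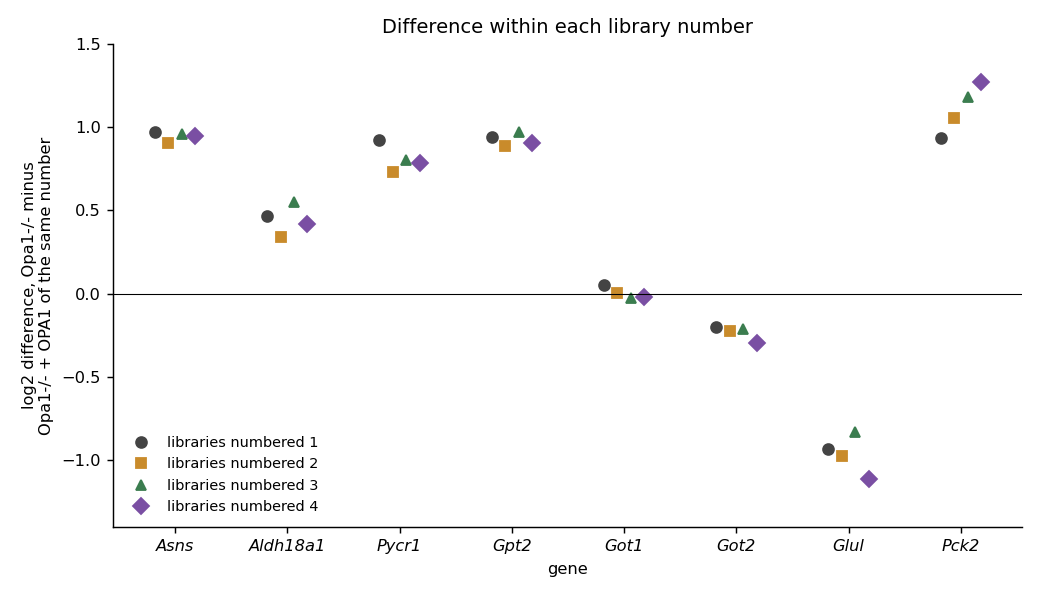
Log2 difference of each enzyme, Opa1-/- minus Opa1-/- + OPA1, between the libraries that carry the same number (1 point per number, log2 of scaled TPM + 1). The 4 points of Asns lie between 0.91 and 0.97, all points of Got2 and Glul are below 0, and those of Got1 fall on both sides of 0.

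Genes whose levels ran most like a member across the 8 libraries were taken by Pearson correlation, as a description in which the split between the kinds carries most of the value. The 3 most like Asns were Jdp2 (r = 0.999), Mars, methionyl-tRNA synthetase (0.999), and Gpt2 (0.997). For Gpt2 they were Mars, Dhrs7 and Asns (0.999, 0.998 and 0.997). Aldh18a1 ran closest to Ift172, Pex6 and Tars, threonyl-tRNA synthetase (0.989, 0.989 and 0.988). The 3 most like Pycr1 were Gpt2, Asns and Dhrs7 (0.995, 0.995 and 0.994). Pck2 ran closest to Shmt2, mitochondrial serine hydroxymethyltransferase (0.997), then H19 (0.997) and Snap47 (0.996). Got1, which varied little, ran closest to Alb, Atp6v1d and C3 (0.951, 0.929 and 0.904), and Got2 to Fgd1, Phlpp2 and Stx17 (0.997, 0.995 and 0.995). Glul ran closest to Smc1a, Pdha1 and Msn (0.999, 0.998 and 0.998), which all lie on the X chromosome, where the median difference of 301 genes was -0.36.

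Other genes of these pathways were counted by list. Over 8 lists of related genes, 63 genes other than the members were tested, and 13 were higher, 8 lower and 42 not called. That is 20.6% higher and 12.7% lower, beside 16.3% and 16.8% of all genes, with a median difference of 0.011 against -0.0010 for all genes. Among 9 other aminotransferases tested, 3 were higher, 1 lower and 5 not called. Psat1, phosphoserine aminotransferase of serine synthesis, was at 414 ± 34.4 TPM in Opa1-/- and 324 ± 28.8 TPM in Opa1-/- + OPA1 cells (0.36, adjusted p = 0.00711), more abundant than any of the 8 members. Bcat2, the mitochondrial branched-chain aminotransferase, was at 22.4 ± 2.15 TPM in Opa1-/- and 16.6 ± 0.586 TPM in Opa1-/- + OPA1 cells (0.41, adjusted p = 0.00192). The glutamine-fructose-6-phosphate aminotransferases of hexosamine synthesis moved apart. Gfpt2 was called higher at a low level, 2.00 ± 0.249 TPM in Opa1-/- and 0.944 ± 0.17 TPM in Opa1-/- + OPA1 cells (0.62, or 1.01 with a pseudocount of 0.1 TPM, adjusted p = 0.00246). Its Opa1-/- + OPA1 libraries were at 0.795 to 1.17 TPM, so it passed the filter of 1 TPM in 4 libraries through the Opa1-/- libraries. With no filter on low values its adjusted p was 0.00751. The abundant Gfpt1 was called lower, at 38.2 ± 4.40 TPM in Opa1-/- and 47.5 ± 1.501 TPM in Opa1-/- + OPA1 cells (-0.32, adjusted p = 0.0114, and 0.0537 on TPM as deposited).

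Of 9 enzymes other than Asns that spend glutamine's amide group on nucleotides, sugars and cofactors, 1 was higher, 4 were lower and 4 were not called, with a median difference of -0.11, beside 16.3% higher and 16.8% lower among all genes. On TPM as deposited 2 were lower, and with chromosome medians removed 3. Ctps, the CTP synthase, was at 116 ± 3.34 TPM in Opa1-/- and 159 ± 5.71 TPM in Opa1-/- + OPA1 cells (-0.45, adjusted p = 7.53e-05), and with chromosome medians removed it differed by -0.29 (adjusted p = 0.000555). The genes that spend aspartate, or like Asl and Adsl act on the products, had 2 of 9 higher, none lower and 7 not called. This leaves Asns aside and is 2 of 9 called, beside 33.0% of all genes. Adssl1, the adenylosuccinate synthase known from muscle, was at 21.7 ± 1.10 TPM in Opa1-/- and 11.9 ± 1.84 TPM in Opa1-/- + OPA1 cells (0.83, adjusted p = 0.000274). Ass1, argininosuccinate synthase, which joins citrulline and aspartate, was at 16.3 ± 1.69 TPM in Opa1-/- and 11.8 ± 1.31 TPM in Opa1-/- + OPA1 cells (0.44, adjusted p = 0.00668).

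Beside Pck2, the genes of oxaloacetate and phosphoenolpyruvate had 2 of 11 higher, 3 lower and 6 not called, beside 16.3% higher and 16.8% lower among all genes. The malic enzymes were called in opposite directions. The cytosolic Me1 was at 89.4 ± 3.82 TPM in Opa1-/- and 72.7 ± 0.744 TPM in Opa1-/- + OPA1 cells (0.29, adjusted p = 0.000626), and the mitochondrial Me2 was at 121 ± 7.88 TPM in Opa1-/- and 150 ± 3.60 TPM in Opa1-/- + OPA1 cells (-0.30, adjusted p = 0.00202). Eno1, the enolase that makes phosphoenolpyruvate in glycolysis, was at 514 ± 22.5 TPM in Opa1-/- and 638 ± 11.8 TPM in Opa1-/- + OPA1 cells (-0.31, adjusted p = 0.000603). With chromosome medians removed Eno1 differed by -0.16 (adjusted p = 0.0243). Eno1b of the same list was at 191 ± 14.9 TPM in Opa1-/- and 190 ± 4.74 TPM in Opa1-/- + OPA1 cells and was not called (0.0010, adjusted p = 0.99). How much sequence Eno1 and Eno1b share was not checked, so how reads divide between them is uncertain. In libraries numbered 3 and 4 alone, with 2 against 2, several calls were lost. Asrgl1, Psat1, Gfpt1, Gfpt2, Ass1, Me1, Me2, Eno1, Slc25a11 and Slc25a15 were then at adjusted p of 0.072 to 0.225. Prodh, Gls2, Pepd and Oplah were at 0.139 to 0.326. In libraries numbered 1 and 2 alone, Gfpt2, Slc25a15, Prodh, Gls2, Pepd and Oplah were not called (0.085 to 0.278).

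Of 9 carriers that move glutamate, aspartate and related molecules across the mitochondrial inner membrane, 1 was higher, 1 lower and 7 not called, beside 33.0% called among all genes. Slc25a12 and Slc25a13, aspartate-glutamate exchangers that work with Got1 and Got2, were not called. Slc25a12 was at 12.9 ± 2.01 TPM in Opa1-/- and 12.4 ± 0.196 TPM in Opa1-/- + OPA1 cells, and Slc25a13 at 54.9 ± 6.22 TPM in Opa1-/- and 57.5 ± 1.23 TPM in Opa1-/- + OPA1 cells. Library 4 was the lowest Opa1-/- library for both, and without it Slc25a12 was called at 0.15 with adjusted p = 0.0141. Slc25a22, a glutamate carrier, was at 12.7 ± 0.987 TPM in Opa1-/- and 12.7 ± 0.608 TPM in Opa1-/- + OPA1 cells (95% confidence interval of the difference -0.15 to 0.14). Slc25a11, the oxoglutarate-malate carrier of the same shuttle, was called higher at 96.8 ± 2.54 TPM in Opa1-/- and 81.5 ± 2.32 TPM in Opa1-/- + OPA1 cells (0.25, adjusted p = 0.00111). Slc25a15, an ornithine carrier on chromosome 8, was called lower at 10.4 ± 0.483 TPM in Opa1-/- and 12.3 ± 0.66 TPM in Opa1-/- + OPA1 cells (-0.22, adjusted p = 0.0137). With chromosome medians removed, Slc25a15 was no longer called (adjusted p = 0.642), nor on TPM as deposited (0.093).

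Small rises were also called in 2 genes of peptide and glutamate recovery. Pepd, a dipeptidase that frees proline, was at 33.8 ± 1.11 TPM in Opa1-/- and 30.7 ± 0.711 TPM in Opa1-/- + OPA1 cells (0.13, adjusted p = 0.0283). It was not called without Opa1-/- library 2 (0.0731) or any 1 of the Opa1-/- + OPA1 libraries (0.0544 to 0.0915), nor with chromosome medians removed (0.724). On TPM as deposited Pepd was not called either (0.163). Oplah, 5-oxoprolinase, which returns oxoproline to glutamate, was at 1.95 ± 0.118 TPM in Opa1-/- and 1.41 ± 0.206 TPM in Opa1-/- + OPA1 cells (0.29, or 0.45 with a pseudocount of 0.1 TPM, adjusted p = 0.0414, and 0.0639 with the library number as a block). It was not called without any 1 of the Opa1-/- libraries (0.0585 to 0.0934) or without Opa1-/- + OPA1 library 1, 2 or 3 (0.0825 to 0.111). Oplah was also not called on TPM as deposited (0.0876), with no filter on low values (0.0986) or with chromosome medians removed (0.0756). With length and GC trends removed its adjusted p was 0.0535.

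Reference genes of the ATF4 axis are given beside the members. Of 11 tested, 10 were higher and none lower, with a median difference of 0.72. Among all genes tested, 16.3% were higher and 16.8% lower, with a median of -0.0010. The list was chosen with earlier results of these data known. Atf4 itself was at 655 ± 77.4 TPM in Opa1-/- and 545 ± 61.1 TPM in Opa1-/- + OPA1 cells (0.26, adjusted p = 0.0731). With the library number as a block Atf4 was called, at adjusted p = 0.00322, and also without Opa1-/- library 1 (0.0476). Trib3, Chac1, Atf5 and Nupr1 differed by 2.02, 1.56, 1.45 and 1.23 (adjusted p = 7.69e-05, 3.72e-05, 3.99e-05 and 6.36e-05). Over all 11 genes the mean of libraries 3 and 4 minus that of 1 and 2 ran from -0.10 (Cebpb) to 0.53 (Trib3) in Opa1-/- and from 0.083 (Ddit4) to 0.48 (Trib3) in Opa1-/- + OPA1 cells. The TGATGNAA core was found in the windows of 4 of these 11 genes and of 1 of 63 other pathway genes that have a window.

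**Figure D4:**
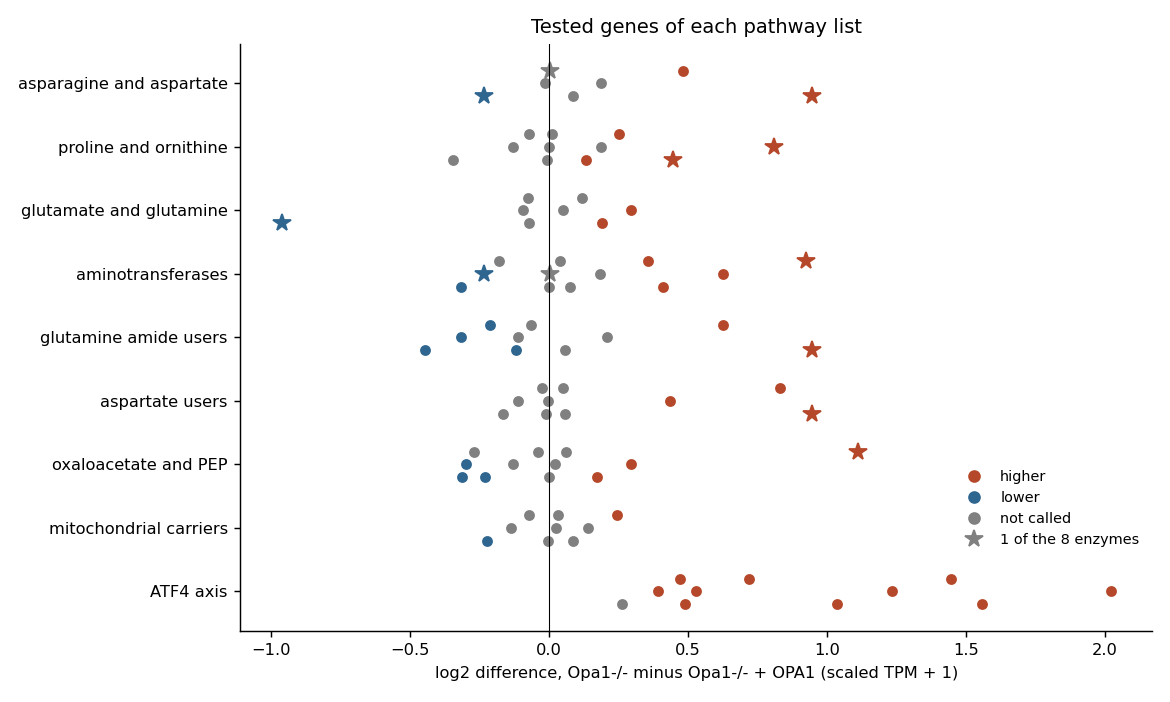
Log2 difference, Opa1-/- minus Opa1-/- + OPA1, of every tested gene in each pathway list, coloured by call, with the 8 enzymes as stars; a gene in several lists appears in each. The starred Asns, Gpt2, Pycr1 and Pck2 lie beyond the other genes of their lists, between 0.81 and 1.11, except that Adssl1 (0.83) lies near Asns among aspartate users, and Glul lies lowest at -0.96.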

How the data were processed

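Per the labels' protocols, RNA came from RNeasy Plus columns and libraries from NEBNext Ultra II RNA reagents. The submitters' processing notes name bcl2fastq 2.17, STAR 2.5.2b, featureCounts and Subread 1.5.2, and the builds mm10 and GRCh38 with no role. Strand setting and annotation are not given in the sources used here. The authors deposited TPM values, per the file headers, for 49315 genes in each of the 8 libraries.

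The 8 members and the gene lists were chosen with earlier results of these data known. Only genes reaching 1 TPM in 4 or more libraries were kept, 14272 in all. On these, TPM were scaled by unweighted TMM, trimming 30% by ratio and 5% by level from both tails. They were tested with limma-trend (limma 3.58.1 under R 4.3.3) on log2(scaled TPM + 1), two-sided, at adjusted p below 0.05. The script was tested on simulated data. Ratios were compared by exact permutation of libraries in Python 3.11.15.

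Positions, exon lengths, GC content and transcript words of 50 bases came from GENCODE M21 (GRCm38), which held 49056 of the identifiers. TPM times exon length steps in whole reads, of which 94.4% to 95% of low values were whole within 0.05. Depth is thus an estimate, and at 53.0 M reads or more the library spread sets the error of abundant genes. Low genes rest on few reads, such as 85 to 233 per library for Gfpt2 and 128 to 226 for Oplah. For these, read sampling adds to the error. No 2 libraries of a kind agreed within sampling noise (lowest chi-square per degree of freedom 4.73). Deviations from the group mean correlated between same-numbered libraries at r = 0.25, 0.22, 0.32 and 0.12 over 9416 genes. Between unlike numbers r ran from -0.32 to 0.11, so number 4 stood little above these. The numbers were taken as pairs for the block, although the labels do not say what they mark.

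Named genes were the 8 members, their paralogues, reverse and neighbouring steps, for each list the called genes with the largest differences, at most 4, and for each member the 3 genes most correlated with it. Some of these genes, and ratios that use them, are not reported here. The alternatives tried are given in the closing section. They covered scaling, pseudocount, filter, block, libraries left out, chromosome medians, and exon length with GC trends removed by splines with 4 degrees of freedom.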

Additional observations from a re-analysis of the deposited data

Results flagged for a closer look

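In 4 of 82 group values checked over 41 named genes, 1 library stood apart from the other 3 of its group by most of the group's range, and chance flags about 1 group in 20. None was a value of the 8 enzymes. Slc25a12 was at 9.87 TPM in Opa1-/- library 4, against 13.7 to 14.1 TPM in the other Opa1-/- libraries. Slc25a13 was at 45.6 TPM in the same library, against 57.4 to 58.6 TPM in the others. Slc25a12 was at 12.2 TPM in Opa1-/- + OPA1 library 2, against 12.5 to 12.6 TPM. Slc25a11 was at 85.0 TPM in that library, against 80.1 to 80.5 TPM.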

How the results depend on the processing

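Asns, Aldh18a1, Pycr1, Gpt2, Glul and Pck2 kept their direction and their call in all 19 alternatives, with differences of 0.88 to 1.01, 0.38 to 0.51, 0.75 to 0.89, 0.84 to 1.11, -1.03 to -0.93 and 0.99 to 1.28. With the library number as a block (the pairing), no call of a member changed, and the adjusted p was 0.000187 for Asns, 0.000498 for Glul and 0.00511 for Got2. Got2 was not called in libraries numbered 3 and 4 alone (-0.26, adjusted p = 0.139), nor with chromosome medians removed (-0.046, 0.4). Without single libraries it ran from -0.25 to -0.20. Got1 was never called and changed sign, at -0.0015 on deposited TPM, -0.026 in libraries numbered 3 and 4, -0.017 with chromosome medians removed, -0.012 with length and GC trends removed, and -0.013 to 0.011 without single libraries.

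Uncalled partner genes near 0 also changed sign. Pycrl was at -0.021 without both libraries numbered 3, -0.0001 in libraries 3 and 4, -0.019 with chromosome medians removed, -0.079 with length and GC trends removed, and -0.023 to 0.034 without single libraries. Oat was at 0.0068 with upper-quartile scaling, 0.016 in libraries 3 and 4, and -0.029 to 0.039 without single libraries. Slc25a22 was at 0.0021 and 0.031 under these 2 settings and -0.041 to 0.031 without single libraries. Slc25a12 was at -0.0016 without both libraries numbered 3, -0.094 in libraries 3 and 4, and -0.012 to 0.15 without single libraries, and Slc25a13 was at -0.11 to 0.012 without single libraries. With chromosome medians removed Aldh4a1 was at 0.022 and Glud1 at 0.098.

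On deposited TPM, 1529 genes were lower, against 2392, and 4 other pathway genes were lower, against 8. In libraries 3 and 4 alone, with 2 against 2, 354 genes were higher and 272 lower, and 2 and 1 of the other pathway genes. Without single libraries 1725 to 2657 genes were higher and 1815 to 2780 lower, and 9 to 14 and 6 to 9 of the other pathway genes. The log2 ratios without both libraries numbered 3 could not pass (smallest adjusted p = 0.1), at 0.25 for Got1 over Got2, 0.63 for Aldh18a1 over Aldh4a1 and 0.64 for Gpt2 over Gpt. Exchanging libraries only within a number (the pairing, added after the data were seen) left the differences at 0.24 for Got1 over Got2, 0.65 for Aldh18a1 over Aldh4a1 and 0.76 for Gpt2 over Gpt, at the smallest possible exact p of 0.125. Got1 over Got2 was at 0.030 (adjusted p = 0.286) with chromosome medians removed. A filter of 5 TPM left out Prodh, Aldh4a1, Gfpt2 and Oplah, so gave no value for them. The cause of these changes was not tested, and settings that leave libraries out also lower their number.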
